A study of Homo sapiens with 4 samples.

Results

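The transcripts described here belong to 56 genes of the distal long arm of human chromosome 2. They were listed as a stretch higher in HEK293 lines expressing the autoimmune regulator AIRE than in the control line. Not every member was itself higher or had a named probe. The stretch was chosen by differences over the control line on the same arrays, so the members' differences over that line describe the choice and carry no test. Only the differences between AIRE-expressing lines, in which the control line has no part, were tested. Of 19304 genes named on the array, 56 are members, 53 of them with a named probe and 50 with a probe past the detection filter. NOP58, ABI2 and ACSL3 had no named probe, and KLF7, PIKFYVE and USP40 had none that passed the filter. Of the 50 measured members, 47 passed the filter through the control line as well and were detected on all 12 arrays. RFTN2, CASP8 and CUL3 passed it through AIRE lines alone.

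HEK293 is a human embryonic kidney cell line. The control line, NC, stably expressed yellow fluorescent protein, and 3 further lines stably expressed AIRE, in each case from the human cytomegalovirus immediate-early promoter. AIRE1 and AIRE2 were different clone-derived lines with wild-type AIRE, and AIRE-D312A carried a mutation in the first PHD finger of the protein. Each of the 4 lines was 1 stable line profiled on 3 Illumina bead arrays from independent experiments. Errors therefore measure the spread between experiments with a line, and an effect of the transgene and a difference between stable lines cannot be told apart. No untransfected HEK293 sample was analysed here, so a higher level in 3 AIRE lines and a lower level in NC cannot be told apart either.

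Arrays had mean intensities of 245.6 to 324.3, with 15823 to 17288 of 48701 probes detected at p under 0.01. The AIRE probe was not detected in NC (4.44 on the log2 intensity scale) and averaged 8.90, 8.51 and 8.31 in the AIRE1, AIRE2 and AIRE-D312A lines. Of 8 markers of the kidney line on the array, 7 were detected on all 12 arrays, and PAX2, a transcription factor of the developing kidney, on none. Of 13 markers of other cell types, 10 were detected on no array and COL1A1, a collagen gene, on all 12. Single markers moved with the lines: NEFM, a neurofilament subunit, was at 8.91 in NC and at 5.24, 5.77 and 5.25 in AIRE1, AIRE2 and AIRE-D312A. DCN, the matrix proteoglycan decorin, was at 5.02 in NC, 6.22 and 5.93 in the wild-type clones and 4.97 in AIRE-D312A. Their part in the members' differences was not tested.

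In the thymic medulla, the nuclear protein AIRE lets epithelial cells transcribe genes typical of peripheral tissues, so that developing T cells meet their products. The distal long arm of chromosome 2 holds mostly unrelated genes with general cellular roles, among them the splicing factor SF3B1, the mitochondrial chaperonins, the apoptosis regulators CASP8 and CFLAR, and the BMP receptor BMPR2. Genes of one stretch of a chromosome rarely share a pathway. The members were therefore set beside other genes in gene order, and beside the partners of each gene elsewhere in the genome. These comparisons describe values of chosen genes, and a cause of the differences was not tested.

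The members were higher than NC in all 3 AIRE lines, by less in AIRE1 than in AIRE2 and AIRE-D312A. Their median difference over NC was 0.37 log2 in AIRE1 (interquartile range 0.20 to 0.48), 0.45 in AIRE2 (0.34 to 0.62) and 0.44 in AIRE-D312A (0.29 to 0.56), over 50 measured members. Over all 11947 genes tested the medians were 0.01, -0.00 and 0.00. In the authors' deposited table of 1 intensity per line, the member medians were -0.02, 0.16 and 0.11, so that the AIRE1 direction turned there, while all genes stood at -0.34, -0.23 and -0.32 and the members 0.32, 0.39 and 0.43 above them. Averaged over the 3 lines, the median member was higher by 0.43 log2, or 1.35-fold. Of the 50 members, 36 had such an average between 0.2 and 0.6, 8 lay above 0.6 and 6 below 0.2. A total of 47 members were higher in every AIRE line, against 29.8% of all genes tested. For 28 members the 3 differences lay within 0.2 of each other, and the median spread between lines was 0.19. The share of all genes tested within that spread was not taken, so these values do not set the members apart.

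The shift was visible on each array. The median deviation of the members from their 12-array means was -0.34, -0.25 and -0.35 on the NC arrays. It was 0.02, 0.10 and -0.01 on the AIRE1 arrays, 0.08, 0.18 and 0.14 on those of AIRE2, and 0.12, 0.15 and 0.10 on those of AIRE-D312A. All 3 NC arrays lay below all 9 AIRE arrays, the AIRE1 arrays overlapped those of AIRE2, and all 3 AIRE1 arrays lay below all 3 of AIRE-D312A. For 23 of 50 members every AIRE array was above every NC array (46% of measured members, against 4.94% of all genes tested), and for 0 members every AIRE array was below (2.82% of all genes tested).

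**Figure D1:**
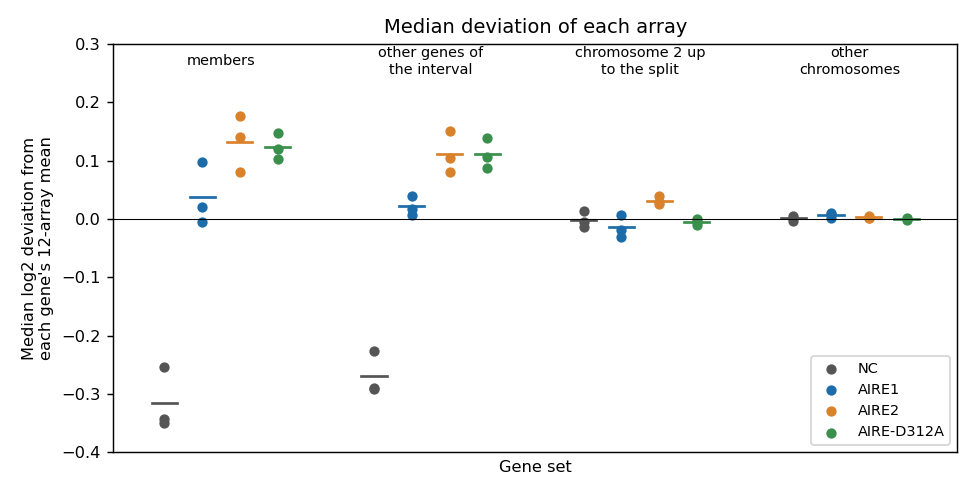
Median log2 deviation of each array from the 12-array mean of each gene, for the measured members, the other measured genes of the interval they span, chromosome 2 up to the split described in the text, and all other chromosomes. Points are arrays and bars are means of 3 arrays. The NC arrays of the members lie between -0.35 and -0.25, below all arrays of the AIRE lines, while the other 2 gene sets outside the interval stay near 0 in every line.

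In the fit across all genes, with a mean per line and 3 arrays each, 16 members were called higher in AIRE1 than in NC at a limma adjusted p under 0.05 (5.21% of all genes tested), 22 in AIRE2 (5.93%) and 17 in AIRE-D312A (2.65%). Members called lower numbered 0 in each contrast (3.06%, 3.52% and 1.32% of all genes tested), with 1, 0 and 0 lower at an unadjusted p under 0.05 in the limma fit. The replicate numbers paired the arrays, and a fit with that number as a block called 33 (12.6% of all genes tested), 41 (14.2%) and 37 (8.71%). With the block 1 member, IGFBP5, was called lower in AIRE1 (10.2% of all genes tested). Median centring in place of quantile normalisation gave 11 (5.46% of all genes tested), 13 (4.32%) and 7 (1.67%), and a fit of only the lines compared 10 (4.21%), 7 (2.7%) and 8 (1.76%). The AIRE-D312A count fell from 17 to 8, 9 and 9 without its own replicates 1, 2 and 3, to 10 and 9 without NC replicates 1 and 3, and to 11 without AIRE1 replicate 2. These contrasts share the NC arrays and chose the members, so the counts are a description.

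**Figure D2:**
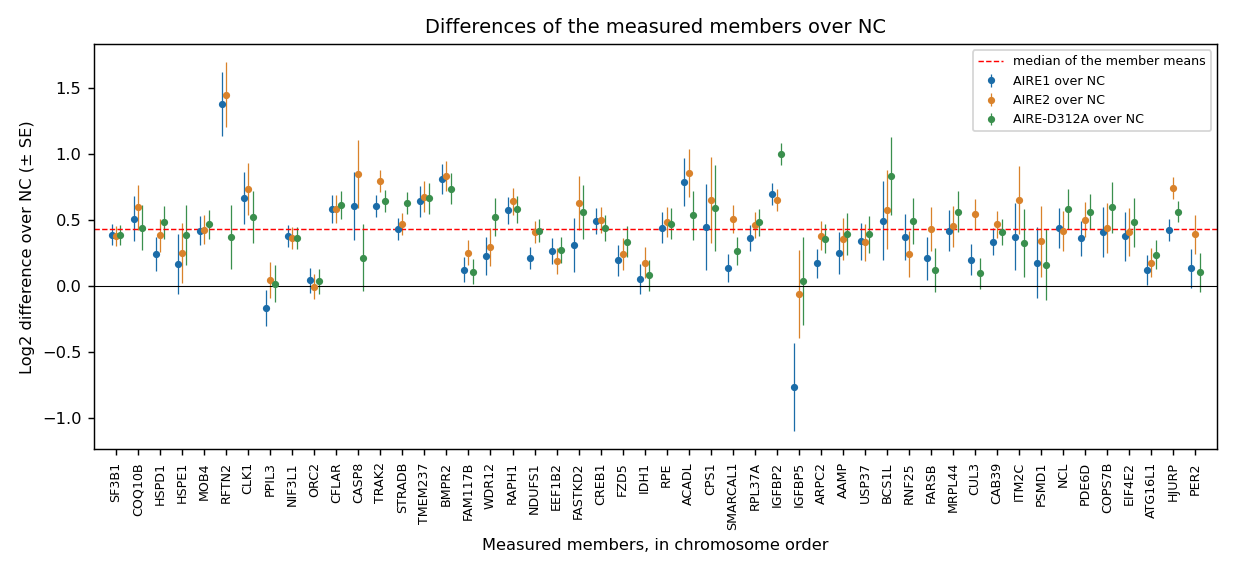
Log2 difference of each measured member over NC in AIRE1, AIRE2 and AIRE-D312A, with standard errors from the fit across all genes (n = 3 arrays per line), in chromosome order. The dashed line marks the median of the member means, 0.43. Most points lie close to that line in all 3 AIRE lines, with RFTN2, IGFBP2 and IGFBP5 farthest from it in at least 1 line. CUL3 was not detected on any NC array, so its difference rests on a level at background.

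The listed genes were not alone in this shift. Between the outermost members, SF3B1 and PER2, 153 genes were measured, 50 of them members and 103 not listed. The unlisted genes had medians of 0.28, 0.36 and 0.39 over NC in AIRE1, AIRE2 and AIRE-D312A. These medians depend on the probes kept: they were 0.27, 0.36 and 0.39 over the 82 unlisted genes detected on all 12 arrays, and 0.09, 0.10 and 0.09 over 216 with no detection filter. Without background correction they were 0.19, 0.26 and 0.26. For 34 of these 103 genes (33.0%) every AIRE array was above every NC array, against 4.94% of all genes tested. They were called higher in 24 cases (5.21% of all genes tested), 36 (5.93%) and 25 (2.65%), and with the replicate block in 49 (12.6%), 63 (14.2%) and 63 (8.71%). Without the block the AIRE1 count was 12, 15 and 15 without AIRE1 replicates 1, 2 and 3 and 14 without NC replicate 3, and the AIRE-D312A count was 14, 15 and 15 without its own replicates 1, 2 and 3. A 2-segment split of the 767 measured genes of chromosome 2, in gene order, fell between AKAP19 and HIBCH in all 3 contrasts over NC, which share the NC arrays. The 584 genes up to AKAP19 had medians of -0.01, 0.01 and 0.00. The 183 genes from HIBCH to the end of the long arm had medians of 0.30, 0.39 and 0.39.

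The split was placed by these same differences, so a contrast between the genes beside it is part of that choice. The last 4 measured genes before it averaged -0.23 (OSGEPL1), -0.21 (ORMDL1), -0.23 (PMS1, a mismatch repair protein) and -0.17 (AKAP19) over the 3 lines. The first after it averaged 0.36 (HIBCH, an enzyme of valine breakdown), 0.84 (INPP1, an inositol phosphatase), 1.26 (MFSD6) and 0.39 (NAB1). The 13 genes between the split and the first member had medians of 0.33, 0.36 and 0.31. Of the 5 measured genes next to SF3B1 on that side, GTF3C3 averaged 0.33, STK17B 0.24, DNAH7 0.11, PGAP1 0.10 and HECW2 -0.13. Beyond PER2, 17 genes had medians of 0.25, 0.34 and 0.37, among them NDUFA10, a subunit of respiratory complex I, at 0.75, TWIST2 at 0.52, TRAF3IP1 at 0.37, ASB1 at 0.30 and the histone deacetylase HDAC4 at 0.28.

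**Figure D3:**
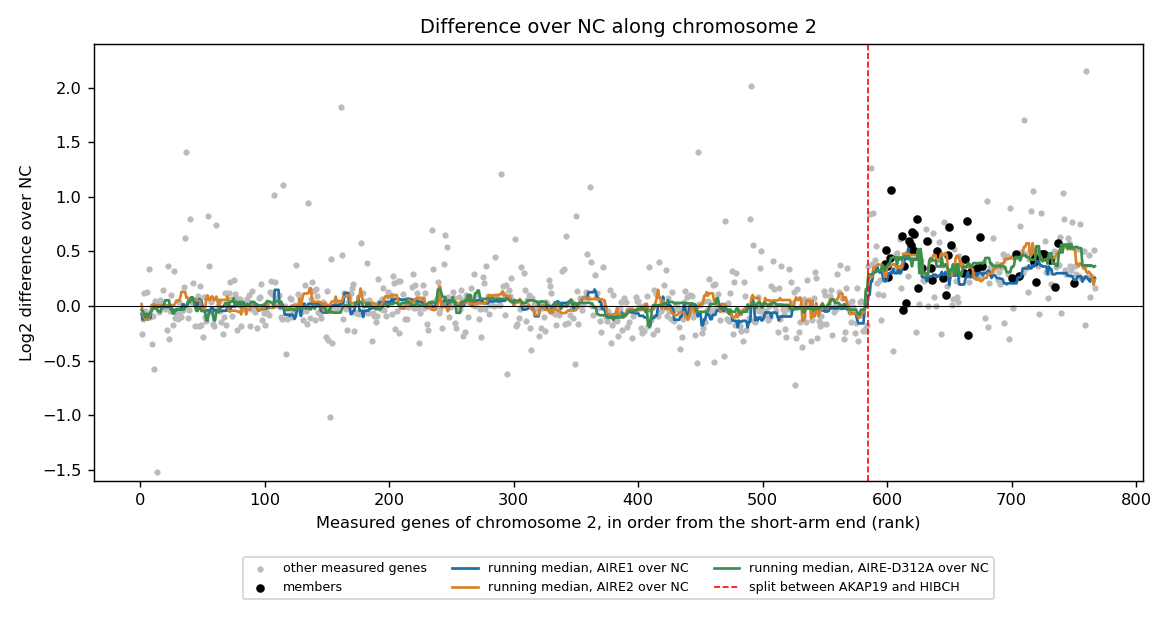
Log2 difference over NC for the 767 measured genes of chromosome 2 in gene order. Points are means of the 3 AIRE lines for members and other genes, lines are running medians over 15 genes in each AIRE line, and the dashed line marks the split between AKAP19 and HIBCH. The 3 running medians stay near 0 up to the split and above it from there to the end of the long arm.

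Other stretches of the genome were examined in the same way. Of 464 windows of 25 neighbouring measured genes, 7 had medians above 0.2 in all 3 contrasts, and 6 of these were on chromosome 2. The other was on the X chromosome, and 5 windows, all on chromosome 11, had medians below -0.2 in all 3.

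Among the members with roles in RNA splicing, SF3B1 and PPIL3 behaved differently. SF3B1, a core subunit of the spliceosomal SF3b complex, read 10.93, 10.90 and 10.83 log2 intensity on the NC arrays. It read 11.28, 11.21 and 11.33 on the AIRE1 arrays, 11.33, 11.22 and 11.25 on those of AIRE2, and 11.30, 11.25 and 11.26 on those of AIRE-D312A. All 9 AIRE arrays were above NC and the 3 lines overlapped, with differences of 0.39, 0.38 and 0.39 (SE 0.08 each). A second SF3B1 probe gave an average of 0.30. CLK1, a kinase that phosphorylates splicing factors, averaged 0.64, and a second CLK1 probe past the filter 0.38. PPIL3, a cyclophilin-like protein, read 10.60, 10.40 and 10.97 in NC and between 10.44 and 10.85 on the AIRE arrays, so that its lines overlapped throughout, with an average of -0.04.

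The mitochondrial chaperonins HSPD1 and HSPE1, which together fold imported proteins, are transcribed in opposite directions from starts 105 bases apart. HSPD1 read 12.43, 12.50 and 12.29 in NC, 12.63, 12.82 and 12.50 on the AIRE1 arrays, 12.71, 13.03 and 12.62 on those of AIRE2, and 12.91, 12.98 and 12.76 on those of AIRE-D312A. Its AIRE1 arrays reached the highest NC array, and its AIRE2 and AIRE-D312A arrays lay above NC. HSPE1 averaged 0.27 over NC and HSPD1 0.37, and further HSPD1 probes gave 0.22 and -0.07. The sequence between their starts is shown because it holds the promoter that both share. It lies at chr2:197500275-197500378 on the plus strand (RefSeq, GRCh38.p14), and capitals mark a GC box (GGGCGG or its complement) and an E-box (CACGTG).
HSPD1-HSPE1: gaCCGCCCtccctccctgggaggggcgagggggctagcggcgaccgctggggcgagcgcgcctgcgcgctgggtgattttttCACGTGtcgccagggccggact

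Members with other mitochondrial roles lay near or above the median. BCS1L, which assembles respiratory complex III, averaged 0.64 with a wide spread (differences of 0.50, 0.58 and 0.83, SE 0.30). COQ10B, which binds coenzyme Q, averaged 0.52, FASTKD2, an RNA-binding protein of mitochondria, 0.50 and MRPL44, a protein of the mitochondrial ribosome, 0.48. NDUFS1, a subunit of complex I, was the lowest of this group at 0.35. Of the metabolic enzymes, ACADL, a long-chain acyl-CoA dehydrogenase, read 6.14, 5.62 and 5.71 in NC, 6.69, 6.54 and 6.60 on the AIRE1 arrays, 6.83, 6.30 and 6.91 on those of AIRE2, and 6.30, 6.16 and 6.62 on those of AIRE-D312A. All 9 AIRE arrays were above NC, and the average was 0.72. CPS1, the first enzyme of the urea cycle, averaged 0.56 with an SE of 0.32 in each line, and the pentose phosphate enzyme RPE 0.47. IDH1, the cytosolic isocitrate dehydrogenase, averaged 0.10, and its values of 7.56 to 7.73 in NC and 7.57 to 7.95 in the AIRE lines overlapped.

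Members that serve the ribosome and translation were higher by moderate amounts. NCL, the nucleolar protein nucleolin, averaged 0.48, RPL37A, a ribosomal protein, 0.43 and EIF4E2, a cap-binding protein, 0.42. WDR12, a ribosome biogenesis factor, averaged 0.35, FARSB, a subunit of phenylalanyl-tRNA synthetase, 0.25 and EEF1B2, an elongation factor subunit, 0.24. Across 4 probes EEF1B2 averaged 0.24 to 0.35. Probes for ribosomal proteins and elongation factors can also read near-identical copies elsewhere in the genome. NDUFS1 and EEF1B2 face away from each other with starts 165 bases apart. The sequence between them, at chr2:206159445-206159608 on the plus strand (RefSeq, GRCh38.p14), is shown because these genes of unrelated function share it, with a GC box and an ETS site (CCGGAAGT) in capitals.
NDUFS1-EEF1B2: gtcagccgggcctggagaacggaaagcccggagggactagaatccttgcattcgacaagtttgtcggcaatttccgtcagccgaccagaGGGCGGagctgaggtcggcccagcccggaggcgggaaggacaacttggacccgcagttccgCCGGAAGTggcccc

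The neighbouring apoptosis regulators CFLAR and CASP8 have opposed roles: caspase 8 starts the death receptor cascade, and CFLAR holds it back. CFLAR read 6.74, 6.67 and 6.48 in NC, 7.17, 7.29 and 7.18 on the AIRE1 arrays, 7.20, 7.10 and 7.34 on those of AIRE2, and 7.22, 7.39 and 7.13 on those of AIRE-D312A. Every AIRE array was above NC, with differences of 0.58, 0.58 and 0.61 (SE 0.11). CASP8 read 5.78, 5.99 and 4.88 in NC, where 2 of 3 arrays detected it. It read 6.31, 6.39 and 5.76 on the AIRE1 arrays, 6.34, 6.50 and 6.36 on those of AIRE2, and 5.88, 5.90 and 5.52 on those of AIRE-D312A. The AIRE2 arrays alone were all above NC, and the differences were 0.60, 0.85 and 0.21 (SE 0.26).

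Of the ubiquitin and proteasome genes, COPS7B, a subunit of the COP9 signalosome, averaged 0.48, the ubiquitin ligase RNF25 0.37, the deubiquitinase USP37 0.35 and PSMD1, a subunit of the proteasome's regulatory particle, 0.22. CUL3, the scaffold of a ubiquitin ligase family, was not detected on any NC array and was at 4.66, 4.49 and 4.76 there. It was detected on 2 AIRE1 arrays, all 3 AIRE2 arrays (5.07, 5.27 and 5.19) and 1 AIRE-D312A array. Among genes of replication and chromatin, HJURP, the chaperone of the centromeric histone CENP-A, averaged 0.58 and SMARCAL1, a replication fork helicase, 0.30. ORC2, a subunit of the origin recognition complex, read 7.33, 7.56 and 7.43 in NC and 7.37 to 7.54 on the AIRE arrays, an overlap on every line, with an average of 0.02. Of the actin and adhesion genes, RAPH1, an actin regulator at the cell edge, averaged 0.60, AAMP, a cell migration protein, 0.33 and ARPC2, a subunit of the Arp2/3 complex, 0.30. A second ARPC2 probe past the filter gave 0.18.

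Receptor and signalling members included the second highest, BMPR2, the type II receptor for bone morphogenetic proteins. It read 7.90, 7.72 and 7.75 in NC, 8.60, 8.58 and 8.62 on the AIRE1 arrays, 8.78, 8.66 and 8.43 on those of AIRE2, and 8.69, 8.35 and 8.53 on those of AIRE-D312A. All AIRE arrays lay above NC and the AIRE lines overlapped, with differences of 0.81, 0.84 and 0.74 (SE 0.11). STRADB and CAB39, partners of the kinase LKB1 or its relatives, averaged 0.51 and 0.40. PDE6D, a carrier of prenylated proteins, averaged 0.48, MOB4, a component of the STRIPAK phosphatase complex, 0.44 and FZD5, a Wnt receptor, 0.26. A second MOB4 probe past the filter gave 0.25.

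IGFBP2 and IGFBP5, neighbouring genes for secreted proteins that bind insulin-like growth factors, did not move alike. IGFBP2 read 8.20, 8.16 and 8.04 in NC, 8.88, 8.76 and 8.84 on the AIRE1 arrays, 8.71, 8.83 and 8.80 on those of AIRE2, and 9.13, 9.07 and 9.19 on those of AIRE-D312A. The AIRE-D312A arrays were above all others and the NC arrays below all others. IGFBP5 read 9.18, 8.48 and 9.09 in NC, 8.24, 7.78 and 8.44 on the AIRE1 arrays, 9.43, 8.03 and 9.10 on those of AIRE2, and 9.09, 8.56 and 9.21 on those of AIRE-D312A. The AIRE1 arrays were below all NC and AIRE-D312A arrays, and replicate 2 gave the lowest array of every line. The differences of IGFBP5 over NC were -0.77, -0.06 and 0.04 (SE 0.33), an average of -0.26 and the lowest of the measured members.

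The transcription factor CREB1, which responds to cyclic AMP, averaged 0.48, and the clock repressor PER2 averaged 0.21. In the group of membrane proteins, TRAK2, which links mitochondria to motor proteins, averaged 0.68, TMEM237, a protein of the ciliary transition zone, 0.66, ITM2C, an integral membrane protein, 0.45 and the autophagy protein ATG16L1 0.18. NIF3L1 averaged 0.37 and FAM117B 0.16. By the mean level of the probe, the median of the averages was 0.28 for the 5 members under 6 log2 intensity, 0.37 for 11 members between 6 and 8, 0.48 for 23 between 8 and 10 and 0.35 for 11 at 10 or over.

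RFTN2, a relative of the lipid raft protein raftlin, was the highest member and divided the AIRE lines. It read 5.15, 4.66 and 5.23 in NC, 6.68, 6.18 and 6.31 on the AIRE1 arrays, 6.75, 5.83 and 6.82 on those of AIRE2, and 5.30, 5.40 and 5.45 on those of AIRE-D312A. The AIRE-D312A arrays lay just above NC and below every array of the wild-type clones. Its differences over NC were 1.38 and 1.45 in the clones and 0.37 for AIRE-D312A (SE 0.24), and it was detected on 2 of 3 NC arrays and on all 9 AIRE arrays.

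**Figure D4:**
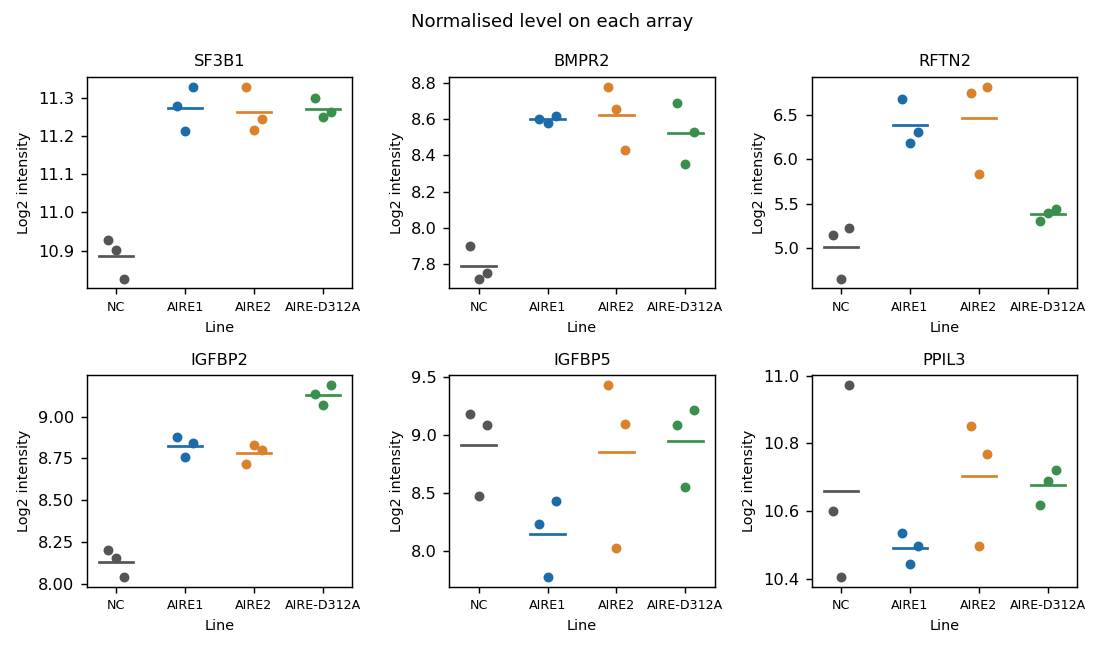
Normalised log2 intensity of SF3B1, BMPR2, RFTN2, IGFBP2, IGFBP5 and PPIL3 on each of 12 arrays. Points are arrays, drawn from replicate 1 to 3 within each line, bars are means of 3, and each panel has its own scale, which does not start at 0. SF3B1 and BMPR2 separate NC from all AIRE lines, RFTN2 is near 5.4 for AIRE-D312A and above 5.8 in both clones, and PPIL3 overlaps in all lines.

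The contrasts between AIRE lines do not involve NC and were tested. Among the 50 measured members, limma called 0 between AIRE1 and AIRE2 (2.3% of all genes tested), 0 between AIRE1 and AIRE-D312A (2.34%) and 1 between AIRE2 and AIRE-D312A (2.22%). At an unadjusted p under 0.05 in the limma fit there were 5 members in each contrast. Of all 11947 genes tested, 1615, 1396 and 1778 had such a p. The member medians were -0.08 for AIRE1 over AIRE2, -0.06 for AIRE1 over AIRE-D312A and 0.01 for AIRE2 over AIRE-D312A. Over all genes tested they were -0.01, -0.00 and 0.00. Members with a difference above 0 numbered 8, 16 and 26 of 50, against 48.3%, 49.3% and 51.0% of all genes tested. A total of 45, 45 and 43 of the 50 differed by under 0.3. Over all genes tested the interquartile ranges were -0.12 to 0.12, -0.11 to 0.11 and -0.12 to 0.14. Most genes thus also differed by under 0.3, and these counts do not set the members apart. The member called was RFTN2, higher in AIRE2 than in AIRE-D312A by 1.08 ± 0.24 (SE, limma adjusted p = 0.0438, all 3 AIRE2 arrays above all 3 AIRE-D312A arrays). In AIRE1 it was higher than in AIRE-D312A by 1.01 ± 0.24 but not called (limma adjusted p = 0.0573). Both differences were called with the replicate block (limma adjusted p = 0.0017 and 0.0026). Without the block, the AIRE2 call held when NC replicate 2 or AIRE2 replicate 2 was left out, and was lost when any of the other 10 arrays was left out (limma adjusted p from 0.057 to 0.183).

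With the replicate block, 3 members were called between AIRE1 and AIRE2 (13.4% of all genes tested), 4 between AIRE1 and AIRE-D312A (9.79%) and 5 between AIRE2 and AIRE-D312A (15.7%). SMARCAL1, IGFBP5 and HJURP were lower in AIRE1 than in AIRE2, with log2 differences of -0.37, -0.70 and -0.32. WDR12, IGFBP2 and IGFBP5 were lower in AIRE1 than in AIRE-D312A, with differences of -0.29, -0.31 and -0.80, beside the higher RFTN2. CASP8, CUL3 and ITM2C were higher in AIRE2 than in AIRE-D312A, by 0.63, 0.45 and 0.33, and IGFBP2 was lower (-0.35). CUL3 passed the detection filter through AIRE2 alone, the line in which it was highest, so its difference is a description and its call carries no weight. Without the block, the IGFBP2 difference missed the threshold (limma adjusted p = 0.0579). Of the 103 unlisted genes of the interval, limma called 5 between AIRE lines without the block. For AIRE1 over AIRE2 1 was higher and 3 were lower (2.3% of all genes tested called either way). For AIRE1 over AIRE-D312A 2 were higher and 2 lower (2.34%), and for AIRE2 over AIRE-D312A 0 were called (2.22%). The crystallin CRYGD was lower in AIRE1 than in AIRE2 and AIRE-D312A (-0.67 and -0.58), as was RAMP1, a partner of the calcitonin-like receptor (-0.96 and -1.23). The villin gene VIL1 was higher in AIRE1 than in both (0.45 and 0.45), COPS8 lower in AIRE1 than in AIRE2 (-0.48) and the crystallin CRYBA2 higher in AIRE1 than in AIRE-D312A (0.48).

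Unlisted genes of the interval also departed from the common shift. The interferon-induced nuclear body gene SP110 averaged 1.05 over NC and SGPP2, a sphingosine phosphatase, 0.90. COL4A4, a basement membrane collagen, was not detected on any NC array (4.51 ± 0.27, SD) and was at 6.27 ± 0.45, 6.45 ± 0.99 and 5.91 ± 0.41 in AIRE1, AIRE2 and AIRE-D312A (n = 3). DRC11 and CRYBA2 were likewise not detected in NC and detected on all 9 AIRE arrays. At the low end PLCL1 averaged -0.41, the ephrin receptor EPHA4 -0.31, the pseudogene RPS29P9 -0.26, the Wnt receptor FZD7 -0.23 and the DNA repair factor NHEJ1 -0.20. The 5 measured pseudogenes of the interval averaged between -0.26 and 0.09, and their probes may read the parent genes elsewhere.

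Gene pairs that start close together in opposite directions were compared because each pair shares 1 stretch of promoter. Within the interval 12 measured pairs had starts within 700 bases, 9 with at least 1 member. In 11 of the 12 pairs both genes averaged above 0.2. Such values were common in the interval, whose 153 measured genes had medians of 0.30, 0.41 and 0.40 over NC in AIRE1, AIRE2 and AIRE-D312A. Whether a shared promoter played a part was not tested. TRAK2 and STRADB (282 bases apart) averaged 0.68 and 0.51, PDE6D and COPS7B (449 bases) 0.48 and 0.48, RNF25 and the unlisted STK36 (84 bases) 0.37 and 0.34, and BCS1L and the unlisted ZNF142 (60 bases) 0.64 and 0.26. The exception was PPIL3, at -0.04, beside NIF3L1, at 0.37 with differences of 0.38, 0.37 and 0.36. Their starts lie 250 bases apart, and the sequence between them, at chr2:200889078-200889326 on the plus strand (RefSeq, GRCh38.p14), is shown because the genes on its sides departed from each other, with a GC box in capitals.
PPIL3-NIF3L1: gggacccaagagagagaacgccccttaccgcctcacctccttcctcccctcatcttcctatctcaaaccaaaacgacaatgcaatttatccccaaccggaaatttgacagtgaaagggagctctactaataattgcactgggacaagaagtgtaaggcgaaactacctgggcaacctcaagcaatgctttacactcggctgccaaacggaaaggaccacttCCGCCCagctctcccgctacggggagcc

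RefSeq promoter windows, 250 bases before to 50 after a start, were found for 53 of the 56 members, 86 windows in all. Their median GC content was 62.7%, against 58.7% over 35116 windows of all genes. A GC box (GGGCGG on either strand) was found in 58 of the 86, against 45.0% of all windows, and an ETS site (CCGGAAGT) in 11, against 4.14%. The paired heat shock half-site GAANNTTC was in 9 (6.77% of all windows), the E-box CACGTG in 7 (7.26%) and the CREB site TGACGTCA in 0 (1.85%). The windows of all genes were not limited to genes detected on these arrays, and a gene can have several windows. These shares therefore do not set the members apart. RFTN2, the member called between AIRE lines without the block, had the lowest GC content of the members with a window, 37.7%, and none of the 5 motifs. Whether promoter sequence played a part in any difference was not tested. The 250 bases before its start, at chr2:197675588-197675837 on the minus strand (RefSeq, GRCh38.p14), are shown for contrast with the shared promoters above.
RFTN2: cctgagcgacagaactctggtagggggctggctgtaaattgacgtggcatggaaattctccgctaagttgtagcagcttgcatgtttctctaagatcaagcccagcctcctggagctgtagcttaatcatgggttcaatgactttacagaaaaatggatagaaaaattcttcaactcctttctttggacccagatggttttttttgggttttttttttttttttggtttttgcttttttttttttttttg

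Genes listed as partners of the members and lying outside the interval had medians near 0. Over 236 measured partners in complexes and pathways, the medians over NC were 0.00, -0.02 and 0.03 in AIRE1, AIRE2 and AIRE-D312A. Called in either direction were 4 (8.27% of all genes tested), 8 (9.46%) and 2 (3.97%), and 0 were called the same way in all 3 contrasts. The block raised these to 23 (22.8%), 36 (26.6%) and 26 (16.4%). The complex I list left out NDUFA10, a subunit whose gene lies beyond PER2 on chromosome 2. NDUFA10 was higher than NC by 0.65, 0.76 and 0.86 in AIRE1, AIRE2 and AIRE-D312A, so the counts and medians of partners do not include it. The other 6 measured SF3b subunits had medians of -0.03, -0.09 and 0.00, beside differences of 0.39, 0.38 and 0.39 for SF3B1. For 43 other proteins of the large mitochondrial ribosomal subunit the medians were 0.01, -0.06 and 0.07, beside 0.42, 0.45 and 0.56 for MRPL44. For 36 other proteins of the large cytosolic subunit they were -0.02, -0.02 and -0.00, beside 0.36, 0.46 and 0.48 for RPL37A. The 7 measured BMP receptors and SMADs had medians of -0.13, -0.08 and -0.14, beside 0.81, 0.84 and 0.74 for BMPR2. In 23 lists with at least 2 measured partners and a measured member, the partner medians averaged over the lines lay between -0.21 and 0.15. The members were chosen as a stretch higher than NC, so the gap between members and partners describes that choice and carries no test.

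**Figure D5:**
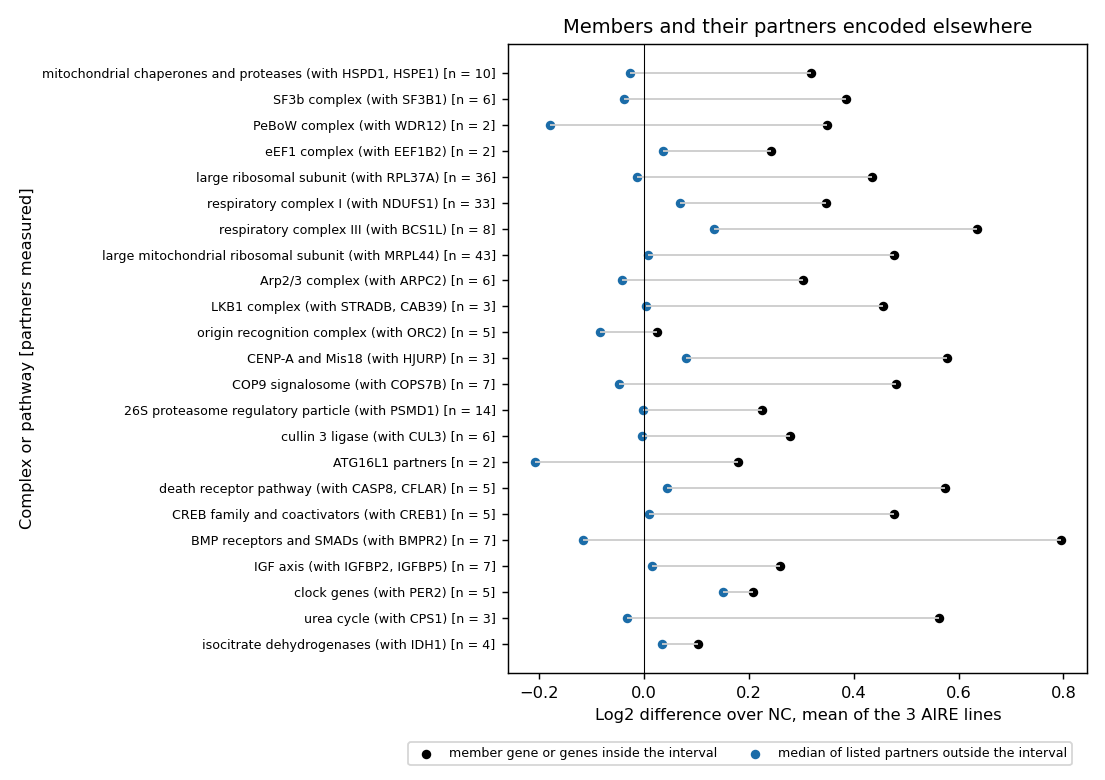
Log2 difference over NC, averaged over the 3 AIRE lines, for the members of each complex or pathway (black, mean where there are 2) and the median of its measured partners encoded outside the interval (blue), in 23 lists. Partner medians lie between -0.21 and 0.15. The black point lies to the right of the partner median in each list, by the least for PER2, IDH1 and ORC2. In the IGF axis that point is the mean of IGFBP2 at 0.78 and IGFBP5 at -0.26. IGFBP5 alone lies to the left of its partner median, 0.016. The members were chosen as a stretch higher than NC, so the place of the black points to the right describes the choice and carries no test.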

How the data were processed

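Per the file headers, each of the 12 deposited files gives probes' average intensity (linear, not normalised between arrays) and detection p-value. The submitters' processing notes name BeadStudio 3.1.3.0. The detection p column of AIRE-D312A replicate 3 was 100% equal to that of AIRE1 replicate 3 and was not used; its detection limit was predicted from the 40th percentile of its intensities, which gave 98.9 to 99.9% of the deposited detection calls when tried on the other arrays. Intensities were corrected by normexp with negative-control parameters inferred from the detection p-values (offset 16), quantile-normalised and log2-transformed (limma 3.58.1, R 4.3.3). The filter kept 16263 probes, those with a detection p below 0.01 on every array of at least 1 line. Of 48701 probes, 24782 had 1 gene symbol, 0 several and 23919 none; 24154 were found in RefSeq's gene table (GRCh38.p14), used for names and gene order. Each gene took its brightest probe, which left 11947 genes.

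One limma model of the 12 arrays gave a mean for each line and 6 pairwise contrasts, adjusted by Benjamini-Hochberg over all genes. The replicate numbers, from the names of the array files, pair the arrays: arrays of the same number deviated together (correlation of deviations 0.33 to 0.85 over 18 pairs, against -0.74 to 0.53 over the other 36). On data simulated for AIRE1 over NC, the fit called 13 of 100 genes changed by 0.4 log2, 83 of 100 changed by 1 log2 and 8 unchanged genes, of 11947 in all.

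The members, role groups and partner lists were chosen with earlier results of these data known. Named with values are members called between AIRE lines, the 6 highest and 6 lowest members, the highest and lowest of each role, the 5 highest and lowest unlisted genes of the interval and the 5 genes next to it on either side; other members are named to account for all of them, and the genes at the split were chosen after their values were seen. The authors' table of 1 intensity per probe and line served as an alternative, as did those named in the closing section.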

Additional observations from a re-analysis of the deposited data

Results flagged for a closer look

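RFTN2 differed between AIRE2 and AIRE-D312A by the test of that difference. It was higher in AIRE2 than in AIRE-D312A by 1.08 ± 0.24 log2 (SE, limma adjusted p = 0.0438, n = 3 arrays per line), with AIRE2 levels of 6.75, 5.83 and 6.82 and AIRE-D312A levels of 5.30, 5.40 and 5.45. In AIRE1 it was higher than in AIRE-D312A by 1.01 ± 0.24 but not called (limma adjusted p = 0.0573), and 5 of 20 alternatives called it. For AIRE2, over 20 alternatives the adjusted p from limma lay between 0.0016 and 0.183, and 7 of them kept the call. The value was 1.40 without AIRE2 replicate 2, the lowest AIRE2 array (limma adjusted p = 0.0016), and 1.08 without NC replicate 2 (limma adjusted p = 0.0338). Without any of the other 10 arrays the call was lost, at limma adjusted p from 0.057 to 0.183 and values from 0.91 to 1.11. Each line is 1 stable line, so an effect of the mutation and a difference between stable lines cannot be told apart.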

How the results depend on the processing

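The RFTN2 difference of AIRE2 over AIRE-D312A, called without the block, stayed above 0 in all 20 alternatives (0.66 to 1.40). A change of sign while called was looked for in this difference alone. With the replicate block, members called were 33, 41 and 37 over NC (AIRE1, AIRE2 and AIRE-D312A) and 3, 4 and 5 between AIRE lines (AIRE1 over AIRE2, AIRE1 over AIRE-D312A, AIRE2 over AIRE-D312A), unlisted genes of the interval 49, 63 and 63, and partners 23, 36 and 26; the block changed no difference. With only the compared lines fitted, members called over NC were 10, 7 and 8, with 1 (AIRE1) and 0 (AIRE2) over AIRE-D312A, unlisted genes 15 (AIRE2) and 16 (AIRE-D312A), and partners 3 and 1; this fit has fewer arrays.

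Median centring in place of quantile normalisation moved the median of all genes over NC by 0.14, 0.06 and 0.07. The members' medians became 0.49, 0.50 and 0.52, or 0.35, 0.44 and 0.45 relative to all genes, with -0.020 and -0.017 for AIRE1 over AIRE2 and AIRE-D312A. It gave 13 (AIRE2) and 7 (AIRE-D312A) members called over NC and 1 for AIRE1 over AIRE-D312A, unlisted medians of 0.44, 0.46 and 0.47 with 15 called in AIRE-D312A, and partner medians of 0.069 (AIRE1) and 0.068 (AIRE-D312A) with 2, 1 and 1 called. In the authors' table, whose scaling no source used here gives, the members' medians over NC were -0.019, 0.16 and 0.11 where all genes stood at -0.34, -0.23 and -0.32, so the direction in AIRE1 turns on that scale while the members stood 0.32, 0.39 and 0.43 above all genes. Its medians between AIRE lines were -0.20, -0.14 and 0.10, where all genes stood at -0.13, -0.03 and 0.10, so the members stood -0.08, -0.11 and -0.0024 from all genes. The cause of these moves was not tested.

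Without background correction the members' median in AIRE2 was 0.40, unlisted medians were 0.19, 0.26 and 0.26, 1 member was called for AIRE1 over AIRE2 and 1 partner in AIRE-D312A. An offset of 50 gave 0.40, 0.19, 0.26 and 0.28, with 1 member called for AIRE1 over AIRE2, 2 for AIRE2 over AIRE-D312A and 1 partner. Without the detection filter unlisted medians were 0.089, 0.10 and 0.087, over many probes at background, 1 member was called for AIRE1 over AIRE2, and the members' median was -0.052 for AIRE1 over AIRE-D312A. That median was -0.11 with genes detected on all 12 arrays, where 14 unlisted genes (AIRE1), 1 partner (AIRE-D312A) and 0 members (AIRE2 over AIRE-D312A) were called, and -0.087 with the mean of a gene's probes.

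Leaving out each array in turn gave 11 to 17, 16 to 24 and 8 to 21 members called over NC, 0 to 2, 0 to 1 and 0 to 2 between AIRE lines, and medians of 0.33 to 0.39, 0.40 to 0.51 and 0.41 to 0.45 over NC and -0.13 to -0.045, -0.085 to -0.057 and -0.0012 to 0.040 between AIRE lines. Unlisted genes called were 12 to 28, 27 to 42 and 14 to 32, with medians of 0.23 to 0.31, 0.35 to 0.39 and 0.36 to 0.40; partners called were 3 to 6, 5 to 14 and 0 to 4, with medians of -0.031 to 0.042, -0.056 to 0.027 and -8.8e-05 to 0.049. Of the counts and medians of gene sets under all alternatives, 132 were labelled as moved and 390 as unchanged. Of 499 further values for single genes, 453 kept their side of the threshold or stayed within their spread. Among the tested differences of single members, only RFTN2 for AIRE2 over AIRE-D312A was called without the block. The others could keep their side only by staying uncalled. In alternatives chosen after seeing the data, counting every unlisted gene beyond the split on chromosome 2 gave 34, 48 and 35 called over NC, and leaving out partners on chromosome 2 gave 4, 8 and 2.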
